A study of Mus musculus with 6 samples.

Results

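The enzymes that turn squalene into cholesterol were examined at the transcript level in mouse liver with and without LKB1. The genes are Sqle, Lss, Cyp51, Tm7sf2, Msmo1, Nsdhl, Hsd17b7, Ebp, Sc5d and Dhcr7, taken by symbol in the order of their reactions, and all 10 were found among the 55450 genes of the table. Poly(A) RNA of the left liver lobe was sequenced from 3 knockout (KO) and 3 wild-type (WT) mice, with 1 library per mouse. The KO mice carried LKB1 fl/fl alleles, in which loxP sites flank part of the gene, and the WT mice did not. Mice of both groups were given AAV8 Cre at 6 weeks of age, a viral vector that brings the Cre recombinase to the liver, and were killed 4 weeks later at 10 weeks of age. The strain is given as C57BL/J for every mouse, and the promoter that drives Cre is not given in the sources used here. LKB1, encoded by Stk11, is a kinase that activates AMPK and its relatives, and the title of the series names metabolic reprogramming as its subject.

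Cholesterol is made from acetyl-CoA by way of mevalonate and squalene. Squalene is oxidised and folded into lanosterol, the first sterol, which then loses methyl groups at carbons of the ring system while its double bonds are moved and reduced. Hepatocytes carry out much of this synthesis, and the genes are known as targets of SREBP-2, a membrane-bound transcription factor that is released when sterols in the endoplasmic reticulum are low. None of this background was measured here, since the data are transcript levels and hold no sterol or enzyme measurement.

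Stk11 checked the labels. Its levels were 22.2, 14.4 and 11.4 CPM (each count relative to its library's total, scaled by trimmed mean of M-values) in KO 1 to 3 and 66.1, 64.2 and 69.7 CPM in WT 1 to 3, so the KO libraries retained some Stk11 reads and lay below every WT library. The gene fell by 2.06 ± 0.247 on the log2 scale (SE, adjusted p = 0.0167), was called in 11 of 15 alternative analyses, and its totals include reads from exons that Cre does not remove. Replicate 1 of each group held Xist counts and nearly no counts of 4 Y-linked genes, and the other libraries held the reverse, so results are also given within these 2 kinds, called the Xist pair and the Y libraries. Cell type markers are given at the end. Total counts ran from 47659122 to 56147667. Of 14539 genes tested, 177 passed an adjusted p of 0.05 as lower in KO, or 1.22%, and 313 as higher, or 2.15% (3.37% in either direction), by edgeR's quasi-likelihood test with Benjamini-Hochberg adjustment, which is the test behind every adjusted p below unless another tool is named.

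Promoters are shown first because most of the genes were lower in KO while Ebp was not. The 250 bases before the annotated start were taken from RefSeq on build GRCm38.p6 for the 9 genes with an entry, and Sqle had none. Each line gives the strand of the gene, 5′ to 3′, and capitals mark CCAAT or its reverse complement ATTGG, the box bound by NF-Y, a factor known to act beside SREBP-2. Cyp51 and Msmo1 stand for the genes with the largest falls, Hsd17b7 for a smaller fall and Ebp for the gene whose groups overlapped.
Cyp51 (chr5:4104698-4104947, minus strand): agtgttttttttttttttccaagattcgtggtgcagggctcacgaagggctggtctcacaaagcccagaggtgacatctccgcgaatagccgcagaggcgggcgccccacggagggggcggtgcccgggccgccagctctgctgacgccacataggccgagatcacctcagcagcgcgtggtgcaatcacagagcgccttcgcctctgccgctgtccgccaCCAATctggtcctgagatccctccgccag
Msmo1 (chr8:64733579-64733828, minus strand): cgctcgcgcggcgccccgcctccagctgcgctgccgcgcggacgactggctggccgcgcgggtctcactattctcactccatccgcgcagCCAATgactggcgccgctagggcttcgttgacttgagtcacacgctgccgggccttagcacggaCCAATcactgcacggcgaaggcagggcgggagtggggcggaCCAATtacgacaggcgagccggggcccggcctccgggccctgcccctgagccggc
Hsd17b7 (chr1:169969206-169969455, minus strand): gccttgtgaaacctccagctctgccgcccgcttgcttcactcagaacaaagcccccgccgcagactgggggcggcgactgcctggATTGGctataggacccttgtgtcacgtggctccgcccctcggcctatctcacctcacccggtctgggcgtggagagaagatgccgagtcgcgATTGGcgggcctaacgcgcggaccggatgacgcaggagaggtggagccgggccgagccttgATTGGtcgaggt
Ebp (chrX:8193513-8193762, minus strand): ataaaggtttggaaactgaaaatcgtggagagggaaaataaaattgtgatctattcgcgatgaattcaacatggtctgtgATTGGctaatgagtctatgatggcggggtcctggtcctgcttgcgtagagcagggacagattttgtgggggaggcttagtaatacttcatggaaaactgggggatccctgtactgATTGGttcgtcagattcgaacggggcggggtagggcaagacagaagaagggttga

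The 2 boxes of Ebp began 170 and 55 bases before the start, the single box of Cyp51 29 bases before it, and those of Msmo1 160, 96 and 55 bases before it. At least 1 box was found on either strand in 9 of the 9 genes, counting the 3 annotated starts of Dhcr7 together, against 37.5% of 27025 genes with an entry. Of the 3 starts of Dhcr7, 1 had boxes, at 85 and 49 bases before it. GGGCGG, the core bound by Sp1, was also found in 9 of 9 genes, against 35.4% of all genes, and CACGTG in 3 of 9, against 6.86%. The letters TCACNCCAC, where N is any base, a strict form of the sterol regulatory element, were found in 0 of 9 and in 1.22% of all genes. Both strands were searched for each motif, and no matches of different motifs overlapped in these genes. A match describes the letters of these windows and does not show binding, and the box was present in Ebp as well as in the genes that fell.

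Transcripts of 9 of the 10 genes were lower in every KO library than in every WT library, a separation that 15.5% of tested genes showed in this direction and 16.9% in the other. Of these, 5 fell past the threshold: Sqle, Cyp51, Msmo1, Hsd17b7 and Dhcr7. That is 5 of 10 against a background of 1.22%, or 3.37% for calls in either direction. Another 4 of them (Lss, Tm7sf2, Nsdhl and Sc5d) had unadjusted p-values under 0.05 but adjusted p-values from 0.0636 to 0.119, and in Ebp the groups overlapped. Unadjusted p-values under 0.05 with a lower KO level were found for 9 of the 10 genes and for 11.7% of all genes. The median log2 fold change of the 10 genes was -1.57, against 0.01 over all tested genes. At the adjusted threshold 0 genes were higher, as also by DESeq2 and limma voom, and at an unadjusted p under 0.05 the number was 0 too, beside 14.6% of all genes. DESeq2 called 9 of the 10 as lower, beside 7.03% of all genes as lower and 8.77% as higher.

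The number of calls depended on single libraries. Without KO 1 the edgeR test called 9 of the 10 genes as lower, beside 14.2% of all genes. It called 2 without KO 2 and 2 without WT 1, where all genes gave 86 and 262 calls in either direction. It called 0 without KO 3, without WT 2 or without WT 3, where all genes gave only 35, 6 and 20 calls. Of the 10 genes, 8, 9 and 9 then had an unadjusted p under 0.05. The share of all genes at that level was not taken for these fits, so these counts have no background beside them. All 9 genes other than Ebp stayed lower in each of 15 alternative analyses. Their separation in the same libraries left little room for another sign, so this adds no support. The plot of fold changes along the pathway shows the estimates with their intervals.

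**Figure D1:**
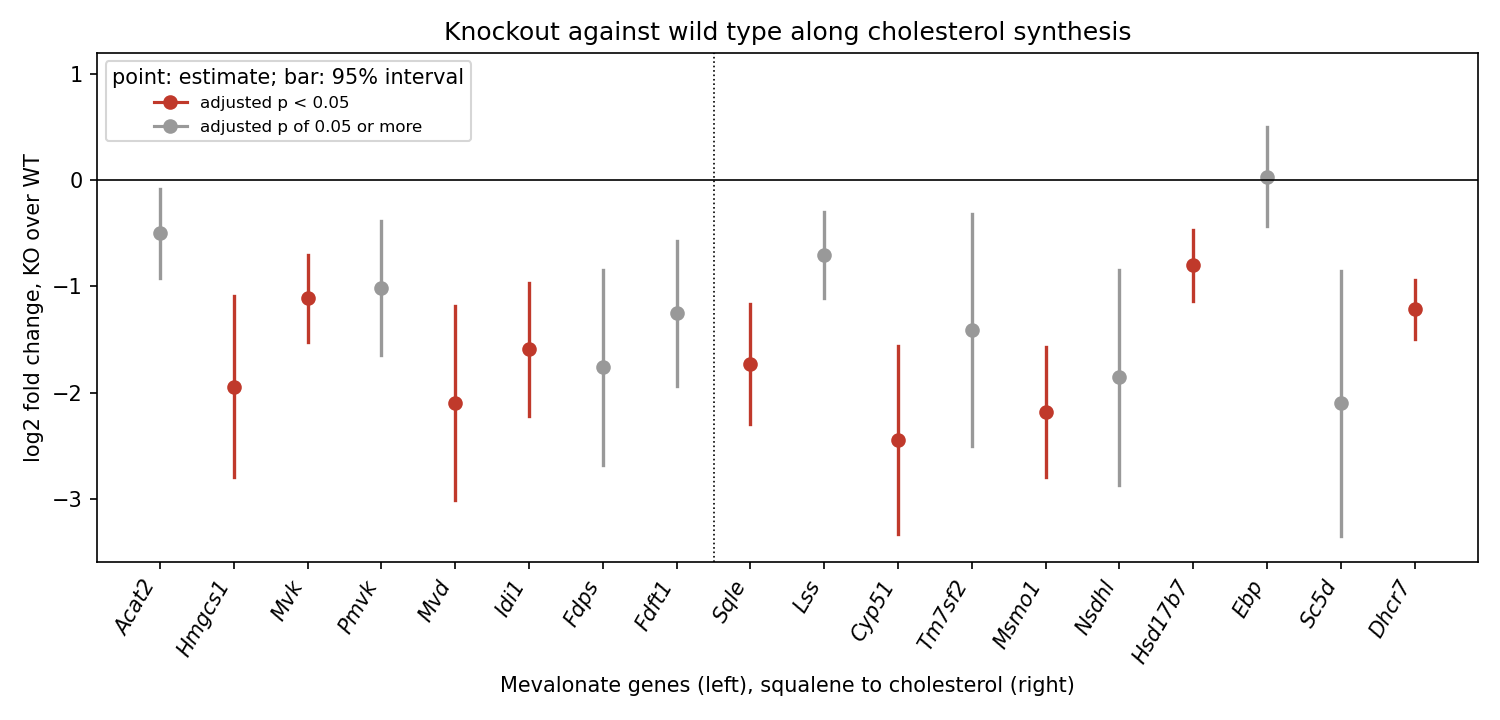
Log2 fold change of KO over WT (vertical axis) for 8 mevalonate genes and the 10 genes from squalene to cholesterol, in order of reaction; points are edgeR estimates, bars are 95% intervals and red marks an adjusted p under 0.05. All genes shown but Ebp lie below 0, with Cyp51 lowest at -2.45.

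By the GENCODE M21 annotation on GRCm38 the protein-coding genes lie apart in the genome. They are Sqle (ENSMUSG00000022351.14, chr15:59315077-59331192), Lss (ENSMUSG00000033105.12, chr10:76531588-76557138), Cyp51 (ENSMUSG00000001467.5, chr5:4081145-4104746), Tm7sf2 (ENSMUSG00000024799.16, chr19:6062821-6068373), Msmo1 (ENSMUSG00000031604.10, chr8:64718139-64733792), Nsdhl (ENSMUSG00000031349.4, chrX:72918557-72958514), Hsd17b7 (ENSMUSG00000026675.12, chr1:169949535-169969241), Ebp (ENSMUSG00000031168.14, chrX:8185329-8193512), Sc5d (ENSMUSG00000032018.14, chr9:42251595-42264256) and Dhcr7 (ENSMUSG00000058454.15, chr7:143823145-143848410). Nsdhl and Ebp, both on the X chromosome, are 1 gene with a low KO level and 1 whose groups overlapped.

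Sqle and Lss open the late pathway. Sqle encodes squalene epoxidase, a rate-limiting enzyme that adds oxygen to squalene. It had 32.6, 24.3 and 17.1 CPM in KO 1 to 3 and 86.0, 85.4 and 73.7 CPM in WT 1 to 3, so the highest KO library lay well under the lowest WT library. It fell by 1.73 ± 0.239 on the log2 scale (SE, adjusted p = 0.0226). Lss encodes lanosterol synthase, which closes the rings. Its levels were 44.8, 38.2 and 52.4 CPM in KO and 84.5, 73.7 and 62.6 CPM in WT, so the groups came closest at KO 3 and WT 3. With a log2 fold change of -0.71 ± 0.171 it did not pass the threshold (adjusted p = 0.0688), and its 95% interval ran from -1.11 to -0.30.

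Cyp51 and Tm7sf2 act on carbon 14 of the sterol. Cyp51, the cytochrome P450 that removes the methyl group there, had the largest change of the 10 genes. Its levels were 70.1, 25.2 and 36.1 CPM in KO and 247, 249.6 and 221 CPM in WT, which is 29.3%, 10.6% and 15.1% of the WT mean in the KO libraries. The WT libraries were close together and the KO libraries were spread over a 2.78-fold range. Cyp51 thus fell by 2.45 ± 0.374 on the log2 scale (SE, adjusted p = 0.0285). Tm7sf2 encodes the sterol reductase of the next step, a reaction that the nuclear envelope protein LBR can also carry out. It had 80.95, 21.1 and 36.2 CPM in KO and 103, 136 and 129 CPM in WT, so KO 1 stood close to the WT range and the other KO libraries far below it. The estimate, -1.41 ± 0.460 in log2 units, missed the threshold (adjusted p = 0.119), while without KO 1 it was -2.11 with an adjusted p of 0.00428. Exons of Tm7sf2 share 532 bases with Vps51, a neighbour on the same strand, so part of its reads had to be divided between them. Vps51 itself had 698.75 to 1220 counts per library, and Tm7sf2 1169 to 7036.

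Msmo1, Nsdhl and Hsd17b7 form the cycle that strips the methyl groups from carbon 4. Msmo1, the methyl sterol oxidase that opens it, had 63.9, 36.5 and 45.1 CPM in KO and 179.8, 263 and 218 CPM in WT. Every KO library was thus far under the lowest WT library, WT 1. It fell by 2.18 ± 0.258 on the log2 scale (SE, adjusted p = 0.0157). Nsdhl, a dehydrogenase that takes off the oxidised carbon as carbon dioxide, had 45.3, 13.3 and 21.3 CPM in KO and 83.98, 107 and 98.5 CPM in WT. KO 1 was again the highest of the KO libraries, and Nsdhl did not pass at -1.86 ± 0.427 (adjusted p = 0.0636). Without KO 1 it did, at -2.49 (adjusted p = 0.0021). Hsd17b7, the ketosteroid reductase that closes the cycle, changed less but evenly. It had 54.0, 44.4 and 52.5 CPM in KO and 89.96, 95.9 and 77.3 CPM in WT, and fell by 0.80 ± 0.141 on the log2 scale (SE, adjusted p = 0.0383).

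Ebp, Sc5d and Dhcr7 rearrange the double bonds of ring B. Ebp encodes the isomerase that shifts a double bond within the ring. It was the exception, with 228, 144 and 206 CPM in KO and 182, 193 and 189 CPM in WT. The KO libraries fell on both sides of the narrow WT range, and the estimate was 0.03 ± 0.197 in log2 units (SE, adjusted p = 0.928), with a 95% interval from -0.43 to 0.50. This interval does not reach the estimate of any of the other 9 genes. It does overlap the 95% intervals of Lss (-1.11 to -0.30) and Tm7sf2 (-2.50 to -0.32). The sign of the Ebp estimate was not stable, being negative without KO 1, without KO 3 and in the Y libraries alone. Ratios within a library, which need no scaling, were set beside this. The count of Ebp over that of Hsd17b7, the step before it, was 4.23, 3.24 and 3.93 in KO and 2.03, 2.01 and 2.45 in WT, with no overlap. Ebp over Sc5d, the step after it, was 0.79, 2.31 and 1.36 in KO and 0.21, 0.27 and 0.32 in WT. These 2 ratios were chosen after the levels had been seen, so they describe the same difference on another scale and no test is given.

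Sc5d, the desaturase that acts after Ebp, had 291, 62.3 and 151 CPM in KO and 851, 727 and 585 CPM in WT. All KO libraries were low, but they differed among themselves by 4.66-fold, the widest range of the 10 genes. At -2.10 ± 0.526 in log2 units (SE) it missed the threshold (adjusted p = 0.0734), and it was -2.76 without KO 1 (adjusted p = 0.0071). Dhcr7, which reduces a double bond of ring B in the last listed step, was the most even of the 10 genes among the KO libraries. It had 41.5, 38.5 and 42.3 CPM in KO and 89.2, 102 and 92.6 CPM in WT, and fell by 1.22 ± 0.118 on the log2 scale (SE, adjusted p = 0.00911). It was called in 12 of 15 alternative analyses, more than any other of the 10 genes.

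**Figure D2:**
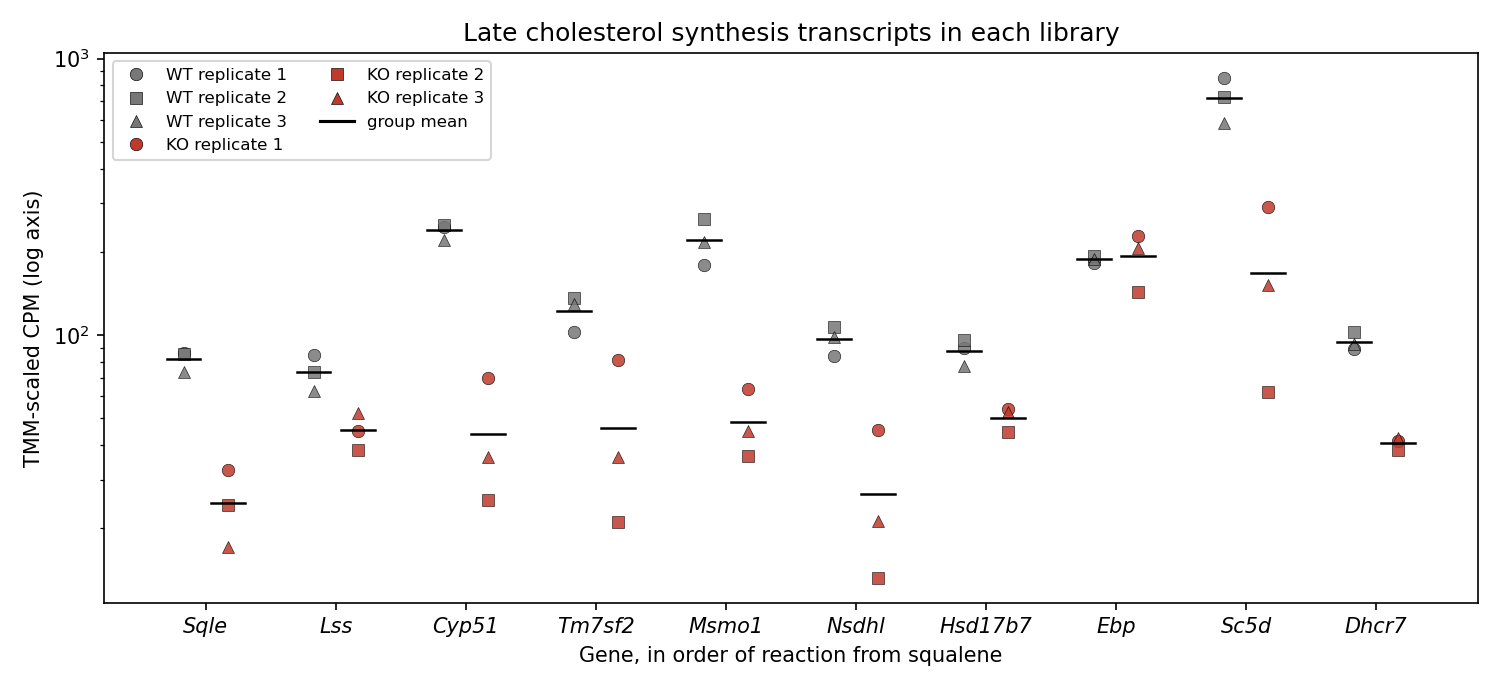
Scaled CPM (log axis) of the 10 genes in each library, with grey WT and red KO symbols, a symbol shape for each replicate number and a line at the group mean. Dhcr7 and Hsd17b7 are tight in both groups, Sc5d, Tm7sf2 and Nsdhl spread widely in KO, and only Ebp overlaps between groups.

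The KO libraries kept a similar order over most of the genes. KO 1 was the highest KO library for 8 of the 10 genes, against 40.7% of all tested genes, and KO 2 was the lowest for 9, against 33.56%. Lss and Dhcr7 were the genes in which KO 3 was the highest, and Sqle the gene in which KO 3 was the lowest. The coefficient of variation in KO was 68.5% for Sc5d, 67.6% for Tm7sf2 and 62.6% for Nsdhl, against 18.5%, 14.1% and 11.9% in WT. Dhcr7 and Hsd17b7 varied by 4.92% and 10.3% in KO and by 7.18% and 10.8% in WT. Expressed against the WT mean, Sc5d retained 40.3% in KO 1 and 8.64% in KO 2, whereas Dhcr7 retained between 40.6% and 44.7% in all 3.

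**Figure D3:**
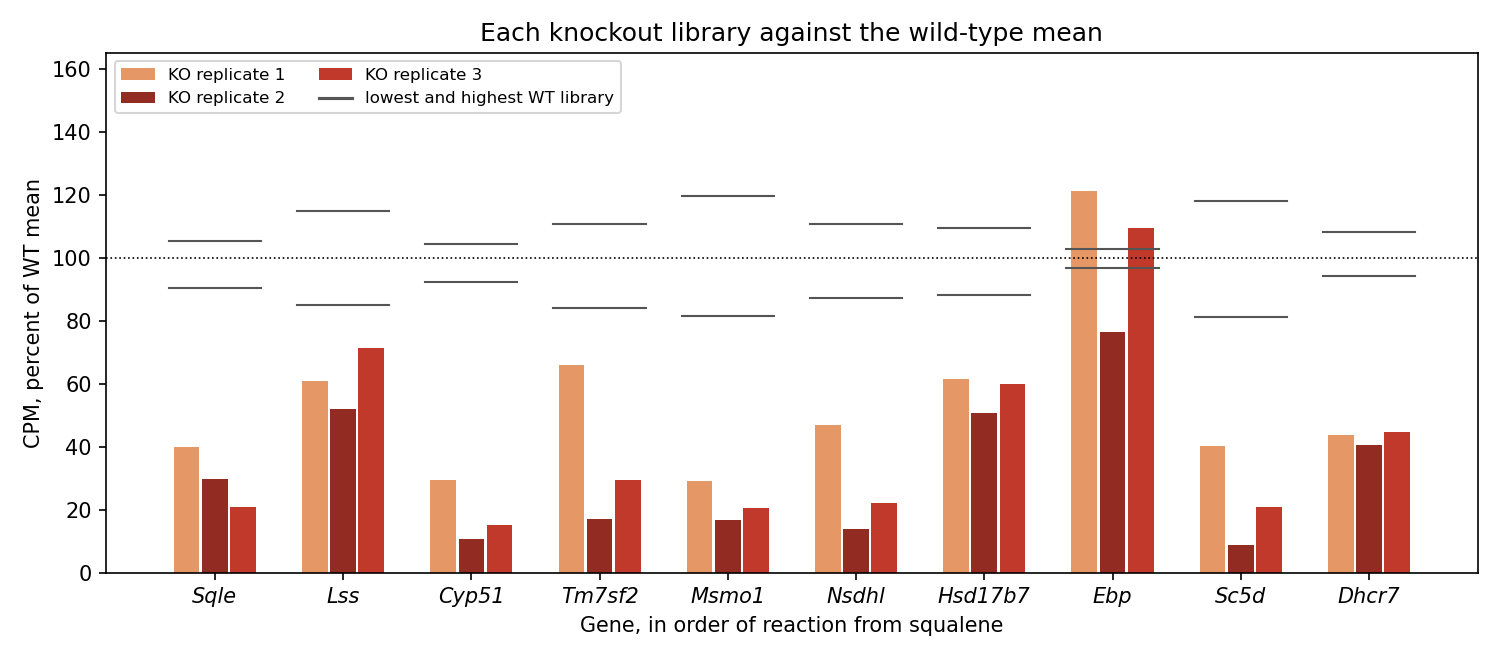
CPM of each KO library as a percentage of the WT mean (bars, axis from 0) for the 10 genes, with lines at the lowest and highest WT library and a dotted line at the WT mean. Bars of Dhcr7 are level at 40.6% to 44.7%, bars of Sc5d run from 8.64% to 40.3%, and those of Ebp stand on either side of 100.

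The same contrast was then read within the 2 kinds of library. Among the Y libraries (2 against 2), 8 of the 10 genes passed as lower, beside 16.1% of all genes, and 0 as higher, also at an unadjusted p under 0.05, beside 17.2%. The median log2 fold change of the 10 genes there was -2.08. Lss (-0.59, adjusted p = 0.0537) and Ebp (-0.13, adjusted p = 0.636) did not pass there. In the Xist pair, 1 library against 1 with no replicate check, 9 genes were lower in KO and the median log2 difference was -1.01. Of the 9 genes that were lower there, Lss had the larger difference in that pair, at -0.92, and the other 8 among the Y libraries, while Ebp was at 0.32 in the pair.

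The gap between the 2 kinds of library was widest for Tm7sf2, at -0.35 in the Xist pair and -2.22 in the Y libraries, and for Nsdhl, at -0.89 and -2.58. A term for the difference of these differences was tested across all genes. It reached an adjusted p under 0.05 for 0 of the 10 genes in edgeR, against 2.9% of all genes, and an unadjusted p under 0.05 for 4 (Cyp51, Tm7sf2, Msmo1 and Nsdhl), against 20.9%. DESeq2 called the same 4 genes (7.22% of all genes) and limma voom called 0. The smallest adjusted p in edgeR was 0.0984, for Nsdhl. The kind of library and the identity of KO 1 and WT 1 cannot be told apart, since each group holds 1 such library.

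**Figure D4:**
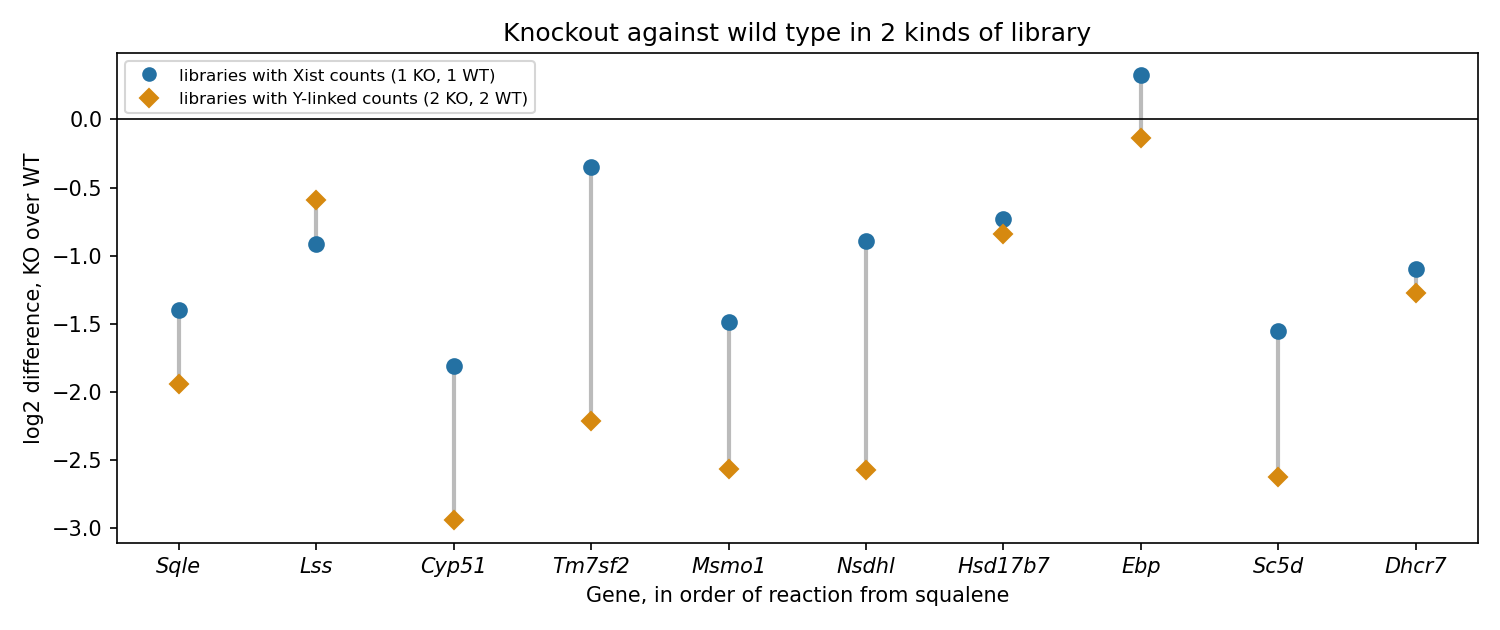
Log2 difference of KO over WT (vertical axis) in the single pair of libraries with Xist counts (circles) and in the Y libraries, 2 KO and 2 WT (diamonds). Tm7sf2 and Nsdhl have the widest gaps, Hsd17b7 and Dhcr7 nearly none, and Ebp lies on either side of 0.

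Levels of different genes were compared per kilobase of the longest principal transcript in GENCODE M21. In WT, Sc5d was the most abundant at 150.6 ± 27.8 CPM per kb (SD, n = 3). Ebp at 107.9 ± 3.16 and Msmo1 at 107.8 ± 20.5 followed, and by this length they did not differ beyond their spread. Tm7sf2 (83.3 ± 11.8), Cyp51 (60.8 ± 4.03), Nsdhl (44.5 ± 5.30), Dhcr7 (33.6 ± 2.42) and Sqle (29.6 ± 2.51) came next in CPM per kb. Hsd17b7 (19.0 ± 2.06) and Lss (15.8 ± 2.35) were lowest and overlapped, as did Dhcr7 and Sqle within their SDs.

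In KO the order was different, with Ebp first at 110.5 ± 25.2 CPM per kb (SD, n = 3). Sc5d (35.1 ± 24.0) and Tm7sf2 (31.3 ± 21.2) followed with spreads that overlap, and Msmo1 (23.7 ± 6.86) lay within them. The lowest 6 genes lay between 8.95 CPM per kb for Sqle and 14.5 for Dhcr7. As a share of the summed level per kilobase of the 10 genes, Ebp made up 35.9%, 45.7% and 45.6% in KO 1 to 3 and 16.3%, 15.8% and 17.6% in WT 1 to 3. With the union of all annotated exons as the length, these shares were 40.0% to 52.1% and 17.6% to 20.4%, so the separation of Ebp does not rest on which length is used. The order of the genes does rest on it. With the union, Msmo1 made up 6.53% to 9.34% in WT and Tm7sf2 5.22% to 7.30%. Both were then below Cyp51, at 12.3% to 12.5%, and Msmo1 was no longer level with Ebp.

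The mevalonate genes, which supply squalene, were lower as well. All 8 genes of the list analysed here were lower in every KO library, 4 of the 8 fell past the threshold (beside 1.22% of all genes) and the median log2 fold change was -1.42. Hmgcs1, the synthase that makes HMG-CoA, had 158 ± 77.7 CPM in KO and 609.8 ± 88.7 CPM in WT (SD, n = 3) and fell by 1.94 on the log2 scale (adjusted p = 0.0431 by edgeR). Mvd, a decarboxylase, fell by 2.10 (adjusted p = 0.0429), Idi1, an isomerase, by 1.59 (adjusted p = 0.0331) and Mvk, mevalonate kinase, by 1.11 (adjusted p = 0.0304). Without KO 1 the number called was 7, beside 14.2% of all genes. It was 0 when any 1 of the other 5 libraries was left out, where all genes gave 6 to 262 calls. In those fits 7 or 8 of the mevalonate genes had an unadjusted p under 0.05, and the share of all genes was not taken there.

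Partners of the late enzymes were read next. Lbr, the other sterol C14 reductase, was at 7.46, 7.27 and 9.72 CPM in KO and 14.2, 10.97 and 10.1 CPM in WT and did not pass (-0.53, adjusted p = 0.147). Among 9 listed partners, which include March6 and Sec14l2 beside proteins that scaffold or pass electrons to these enzymes, edgeR called 0 in either direction. At an unadjusted p under 0.05, 3 were lower and 1 higher (11.7% and 14.6% of all genes), DESeq2 called 2 as lower and 1 as higher (7.03% and 8.77% of all genes), and limma voom called 0. Erg28, a scaffold of the carbon 4 cycle, had 41.9, 21.5 and 29.4 CPM in KO and 73.3, 62.7 and 54.8 CPM in WT (-1.04, adjusted p = 0.0696). Pgrmc1, a heme protein that binds CYP51, was at -0.64 (adjusted p = 0.101). Among the Y libraries edgeR called 4 of the 9 partners as lower and 1 as higher, beside 16.1% and 17.2% of all genes.

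Por, the reductase that passes electrons to CYP51 and SQLE, was the partner with the positive value. It had 251.5, 878 and 736 CPM in KO and 284, 191 and 161 CPM in WT, so KO 1 lay inside the WT range and KO 2 and 3 far above it. At 1.55 ± 0.472 in log2 units (SE) it missed the threshold (adjusted p = 0.104). Among the Y libraries it passed at 2.19 (adjusted p = 0.00155), and in the Xist pair it was -0.18. The difference between those values passed in edgeR (adjusted p = 0.0258).

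Genes of SREBP control and sterol uptake gave no call in edgeR over all 6 libraries among 14 tested of 15 listed. At an unadjusted p under 0.05, 7 were lower and 3 higher, where all genes gave 11.7% and 14.6%. DESeq2 called 5 and 2, where all genes gave 7.03% and 8.77%, and limma voom called 0. Srebf2, which encodes SREBP-2, had 48.3, 40.6 and 49.3 CPM in KO and 84.2, 61.6 and 61.3 CPM in WT, separated but not past the threshold (-0.58, adjusted p = 0.0939). Scap, its escort, was at -0.63 (adjusted p = 0.0756). Among the Y libraries edgeR called 5 genes of the list as lower and 4 as higher, beside 16.1% and 17.2% of all genes. Srebf2, Scap and Insig2 passed there (adjusted p = 0.042, 0.0337 and 0.00829), and Insig1 did not (adjusted p = 0.14). Insig1, a retention protein that is itself an SREBP target, was at -1.24 (adjusted p = 0.11) and Insig2, its relative, at 1.03 (adjusted p = 0.0791), with 382.5, 536.5 and 505 CPM in KO and 153, 276 and 268 CPM in WT.

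The next list held 8 genes of sterol export and of the sterol-sensing receptors LXR and their targets. Of these, Abcg5 and Abcg8, the partners of the transporter that moves sterols into bile, rose. EdgeR called 0 genes of the list as lower, while 2 were lower at an unadjusted p under 0.05 (11.7% of all genes). DESeq2 called 2 as lower (7.03%) and limma voom 0. The 2 calls as higher stand beside 2.15% of all genes. Abcg5 went from 72.4 ± 20.7 CPM in WT to 357 ± 146 CPM in KO (SD, n = 3; log2 fold change 2.30, adjusted p = 0.0334 by edgeR), and Abcg8 from 103 ± 19.0 to 389.9 ± 139.8 CPM (1.93, adjusted p = 0.0329). The log2 difference was 0.99 for Abcg5 and 0.90 for Abcg8 in the Xist pair, and 2.85 and 2.34 among the Y libraries. Without KO 1 Abcg5 and Abcg8 were both called. When any 1 of the other 5 libraries was left out, 0 of the 8 genes was called as higher, where all genes gave 6 to 262 calls. In those fits 2 or 3 of the 8 were higher at an unadjusted p under 0.05, a count for which the share of all genes was not taken. Abca1, which exports cholesterol to apolipoproteins, was at -0.55 (adjusted p = 0.0854). Of 8 tested genes of sterol esterification and conversion to bile acids or oxysterols, Cyp27a1, the sterol 27-hydroxylase, was called: its level was 472 ± 48.0 CPM in WT and 204 ± 21.04 CPM in KO (SD, n = 3), which is -1.21 in log2 units (adjusted p = 0.0226 by edgeR). It was the only call among the 8, beside 1.22% of all genes, and without KO 1 the number was 5, beside 14.2%. The call of Cyp27a1 held without WT 1 (adjusted p = 0.0362) and without KO 1, and was lost without KO 2, KO 3, WT 2 or WT 3 (adjusted p = 0.0526, 0.119, 0.147 and 0.138). Soat2, which esterifies cholesterol, was at -0.56 (adjusted p = 0.151), and Cyp7b1, an oxysterol hydroxylase, at -2.03 (adjusted p = 0.255) with 18.2 CPM in WT 1 against 353 and 454 CPM in WT 2 and 3.

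Fatty acid synthesis, which is run by the related factor SREBP-1c, did not share the pattern of lower values throughout. Of 8 tested genes 5 were negative and 3 positive, the median was -0.16, and edgeR called 0, with 1 lower and 1 higher at an unadjusted p under 0.05 (11.7% and 14.6% of all genes). DESeq2 and limma voom each called Acly as higher, and DESeq2 called 1 as lower. Among the Y libraries edgeR called 3 as lower and 1 as higher, beside 16.1% and 17.2% of all genes. Acly, which makes cytosolic acetyl-CoA from citrate, had 594, 517 and 968 CPM in KO and 287, 297 and 246 CPM in WT and stood just outside the threshold (1.33, adjusted p = 0.0507). Acss2, which makes acetyl-CoA from acetate, was at -1.17 (adjusted p = 0.0922) and Elovl6, a fatty acid elongase, at 1.196 (adjusted p = 0.207).

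The genes whose profile over the 6 libraries came closest to the mean profile of the 10 were Acot1, Mpdz, Bcar3, Cd82 and Fgfrl1, with Pearson coefficients from 0.9965 to 0.9987 among 7494 other genes with a mean of at least 10 CPM. The libraries share group, depth and preparation, so this ranks likeness over 6 points and nothing more. Acot1, a cytosolic acyl-CoA thioesterase, had 8.97, 1.91 and 3.97 CPM in KO and 37.1, 40.2 and 36.7 CPM in WT. Bcar3 had 33.8, 22.9 and 28.8 CPM in KO and 53.8, 56.6 and 50.5 CPM in WT. In log2 units the differences were -2.94 for Acot1, -0.91 for Bcar3, and -0.64, -0.66 and -0.53 for Mpdz, Cd82 and Fgfrl1. These genes were picked for a profile that is lower in KO, so the differences are given as a description with no test.

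Markers of cell types moved with the groups in part. Of the hepatocyte list, 9 genes were analysed and all had counts. Their summed level ran from 28420 to 77140 CPM in KO and from 87630 to 126200 CPM in WT. Alb was at 10390 to 50550 CPM in KO and 57060 to 95630 CPM in WT. In every KO library 6 genes were lower and 3 higher, beside 15.5% and 16.9% of all genes. Of these 9, edgeR called Tat, an amino acid catabolic enzyme, as higher (adjusted p = 0.0344) and 0 as lower, beside 2.15% and 1.22% of all genes. At an unadjusted p under 0.05, 3 were lower and 2 higher (11.7% and 14.6% of all genes). The 10 endothelial markers summed to 138 to 214 CPM in KO and 267 to 354 CPM in WT, with 9 lower in every KO library, beside 15.5% of all genes, and 0 called by edgeR (9 at an unadjusted p under 0.05, beside 11.7%). Sums over the macrophage, lymphocyte, stellate and cholangiocyte lists overlapped between the groups over all 6 libraries. Among the Y libraries the lymphocyte sums still overlapped. The macrophage sums there were 170 and 129 CPM in KO and 185 and 254 CPM in WT. The stellate sums were 184 and 128 against 199 and 243 CPM, and the cholangiocyte sums 24.8 and 33.6 against 39.5 and 46.8 CPM. Genes of dividing cells summed to 52.6 CPM in KO 1 and to between 4.16 and 8.66 CPM in the other 5 libraries. No marker of these lists was at 0 in every library. In bulk tissue, fewer cells of a type and less RNA per cell cannot be told apart, and the part of any of these shifts in the sterol genes was not tested.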

How the data were processed

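RNA sequencing of 6 mouse livers was analysed from 1 deposited table of expected counts, the estimated reads per gene written by RSEM, with no scaling by the authors. Per the submitters' processing notes, bcl2fastq 2.17, cutadapt 1.18, STAR 2.7.0f and RSEM 1.3.1 were used and the build mm9 was named. All 55450 versioned gene identifiers and symbols match GENCODE M21 on GRCm38, so gene models, lengths and overlaps were taken from M21, and the mismatch with the named build was not resolved. Use of strand is not given in the sources used here, so reads of Cyp51 and Akap9 on the opposite strand, which share 166 exon bases, cannot be told apart. Groups and replicate numbers come from the titles, 0 columns lacked a sample, and p-values are set against the spread between these mice. For the difference between the 2 kinds of library, that spread is seen among the Y libraries alone, since each group holds 1 Xist library.

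Expected counts were rounded, filtered with filterByExpr, scaled by TMM and tested with edgeR 4.0.16 in R 4.3.3, with the group as the only term. The standard error is the log2 fold change over the square root of the F statistic. Log2 differences of the Xist pair use an offset of 0.1 CPM, and correlations a prior count of 2. Alternatives used limma 3.58.1, DESeq2 1.42.0, other scalings and filters, added terms and left-out libraries. Library totals of 47659122 to 56147667 counts leave each of the 10 genes at 736 counts or more. The 10 genes, the other lists and the rule for named genes (Stk11, the 10 genes, 4 fixed genes, list genes past the threshold or the 3 with the smallest p, and the 5 most alike profiles) were chosen with earlier results of these data known. Some genes of the lists and of that rule are not reported here and were left out of the lists' counts.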

Additional observations from a re-analysis of the deposited data

How the results depend on the processing

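Scaling by size factors or library size alone, a CPM filter and limma voom each gave 5 calls among the 10 genes, as reported. DESeq2 gave 9 and the Y libraries alone 8. With the replicate block the number was 2, since Cyp51, Msmo1 and Hsd17b7 moved to adjusted p-values of 0.0512, 0.0557 and 0.0883. Same-numbered libraries deviated together with correlations of 0.178, 0.044 and 0.068, and KO 2 and KO 3 correlated best with a WT library of another number, so the numbers were not taken to pair the mice. KO 1 and WT 1 also share their Xist counts. Leaving out 1 library gave between 0 and 9 calls. Over all genes, 490 calls became 771 with no filter on low counts, 2290 with DESeq2, 105 with the replicate block, 1504 with the Xist state as a term and 4847 in the Y libraries, and between 6 and 4473 when 1 library was left out. The cause was not tested.

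For the difference between the 2 kinds of library, library size alone gave 2 calls among the 10 genes and no filter gave 4. DESeq2 gave 4, beside 7.22% of all genes. The share of all genes was not taken for library size alone or no filter, so those counts have no background beside them. These alternatives were chosen after the data were seen. Ebp was at -0.13 in the Y libraries and at -0.11 and -0.02 without KO 1 and KO 3. With 1 library left out its values ran from -0.11 to 0.21. The 10 genes have 736 counts or more in each library.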
